A study of Mus musculus with 2 samples.

Results

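The 10 assays described here detect miRNAs best known from tissues other than macrophages: miR-124 and miR-219-5p (neural), miR-122 (liver), miR-375 (pancreatic islet), miR-144 and miR-451 (erythroid), miR-126-3p (endothelial), and miR-200c and miR-200b (epithelial). They were chosen by name out of 376 miRNA assays on the plate, as miRNAs of such tissues with a threshold cycle (Ct, the PCR cycle at which the signal crosses a set threshold) below 35 in at least 1 pull-down. They are not all the assays of these tissues below 35 cycles. Also below it, but not among the 10, were miR-9, miR-7a and miR-132 (neural), miR-486 (erythroid), and miR-200a and miR-205 (epithelial). Of the 10, 8 carry mouse names, and 2 are the rat-named assays of miR-200c and miR-200b. Because their Ct values chose them, how many were seen in which pull-down is a description and not a test. Over all miRNA assays, 37% were below 35 cycles in at least 1 pull-down.

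All material came from RAW264.7 cells, a mouse macrophage line, grown in DMEM with 10% FBS at 37 °C and 5% CO2. A probe was transfected into the cells and left for 24 hours, the captured RNA was collected on streptavidin beads, and its miRNAs were quantified on Exiqon multiplex plates by SYBR green real-time PCR. The groups are a pull-down with a control probe and a pull-down with a probe for Stat3 mRNA, compared to find miRNAs associated with that mRNA, which encodes a transcription factor acting downstream of cytokine receptors. Each group is 1 pull-down, read on 1 plate of 384 wells, so there is no replicate, no test between the probes and no SD between samples. What the control probe matches is not given in the sources used here, and RNA from before the pull-down was not analysed here.

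A miRNA is a short RNA that guides an Argonaute protein to messenger RNAs, mainly by pairing through its seed, bases 2 to 8 from the 5′ end. Many miRNAs are made in nearly every cell, while others are concentrated in a single tissue whose transcription programme their genes follow. miR-124 is the classic miRNA of neurons, miR-219 accompanies myelination by oligodendrocytes, and miR-122 makes up much of the miRNA of hepatocytes. miR-375 is typical of islet and other endocrine cells, miR-144 and miR-451 are made together in red cell precursors, miR-126 is typical of endothelial cells, and the miR-200 family maintains the epithelial state by repressing Zeb1 and Zeb2.

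Mature sequences were matched for 5 of the mouse-named assays and, as the mouse counterpart of a rat-named assay, for miR-200b. They are shown because the seeds tell which of these miRNAs can pair with the same sites. They are RefSeq sequences on GRCm38.p6, written 5′ to 3′ with the seed in capitals, and miR-144 and miR-200c, whose assay names give no arm, were taken as the 3p arm.
mmu-miR-219a-5p: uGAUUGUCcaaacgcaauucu
mmu-miR-144-3p: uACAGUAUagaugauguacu
mmu-miR-451a: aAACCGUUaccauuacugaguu
mmu-miR-126a-3p: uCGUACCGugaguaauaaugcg
mmu-miR-200c-3p: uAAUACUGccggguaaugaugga
mmu-miR-200b-3p: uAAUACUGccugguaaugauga
These 6 sequences carry 5 seeds. The seed of miR-200c and miR-200b is the same, and miR-429-3p also has it. Counted from the 5′ end, with the base of miR-200b first, miR-200b and miR-200c differ by U11G and A22G over 22 shared positions, and miR-200c is longer by 1 base. GC content was lowest in miR-144, at 30%, and highest in miR-126, at 45.5%. miR-124, miR-122 and miR-375 are given by name only.

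The hairpins of miR-144 (chr11:78073005-78073070, plus strand) and miR-451 (chr11:78073170-78073241, plus strand) are separated by 99 bases and lie within the span of no other annotated gene. The miR-126 hairpin (chr2:26591357-26591429, plus strand) lies within the span of Egfl7, an endothelial gene. The miR-200c hairpin lies at chr6:124718322-124718390 and that of miR-200b at chr4:156055681-156055750, both on the minus strand, the latter within the span of the gene model Gm13648. miR-219a-5p has 2 genes, at chr2:29845631-29845727, within the span of Cercam, and at chr17:34024983-34025092, both on the minus strand. miR-124 has 3 genes, of which Mir124a-1 and Mir124a-2 lie within the spans of their noncoding host genes. Whether a hairpin is exonic or intronic was not determined.

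In the control pull-down all 10 assays were below 35 cycles. In the Stat3 pull-down 4 were: miR-451, miR-126-3p and the mouse-named and rat-named assays of miR-200c. The other 6 were below the limit with the control probe only, and 0 with the Stat3 probe only. Among all 376 miRNA assays, 26.6% were below the limit in both pull-downs, 3.72% with the control probe only and 6.65% with the Stat3 probe only. Of the 114 assays below the limit with the control probe, 12.3% were not below it with the Stat3 probe. The listed assays were picked on these same Ct values, and nothing is read from how 6 of 10 compares with those shares. In 9 of the 10 the Ct was higher with the Stat3 probe or at 35 or above there, and the exception was miR-126-3p. A higher Ct means less template, but for the 6 seen with the control probe only this outcome follows from their state. With every Ct above 35 set to 35, 76.6% of the miRNA assays that could be tied to a plate well had a lower Ct with the Stat3 probe. Nothing is read from that comparison either.

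**Figure D1:**
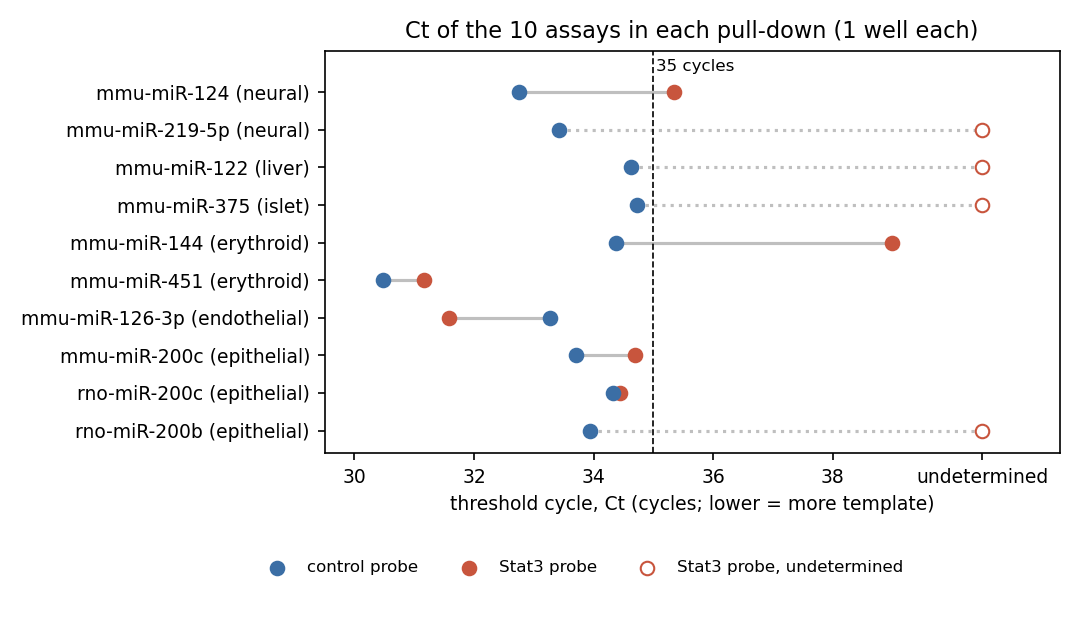
Ct (in cycles, horizontal axis) of each of the 10 assays with the control probe (blue) and the Stat3 probe (red, open where undetermined), 1 well each, with the limit of 35 cycles dashed. All 10 blue points lie left of the limit and 4 red points do, and miR-126-3p alone has its red point left of its blue point.

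Ratios put the Stat3 pull-down over the control pull-down on the authors' own scale. Values of the authors' deposited table equal 2 raised to the control Ct minus the Stat3 Ct plus 0.7, with every Ct above 35 set to 35. Through the offset of 0.7 cycles, an assay with the same Ct in both pull-downs has a ratio of 1.625. The offset equals, to 2 decimals, the size of the difference in the well taken as the UniSp6 spike-in, -0.6973 cycles (control minus Stat3), so that well has a ratio near 1 on this scale. That the offset was derived from it is stated in no source used here. Where the Stat3 Ct was 35 or above, the ratio is an upper bound. The only error measured on these plates is that of 3 wells of UniSp3, a calibrator template present in the same amount on each plate: their control minus Stat3 difference was -0.89 ± 0.97 cycles (SD, n = 3 wells). An SD of 0.97 cycles is 1.96-fold. It reflects PCR and well position and holds no spread between pull-downs. The median ratio of the 100 miRNA assays measured in both pull-downs was 4.22-fold. It was 5.01-fold for the 74 of them in alternate plate rows starting at A, where 8 of the listed assays lie, and 1.80-fold for the 26 in alternate rows starting at B, which hold the 2 rat-named ones. The part that plate rows have in a ratio was not tested. Of the small nuclear RNA controls, which are not miRNAs, U6 had a ratio of 4.33, RNU1A1 of 0.699 and RNU5G of 0.472. Their control Ct values were 31.63, 27.38 and 27.83.

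Both listed neural miRNAs were below the limit with the control probe only. The unlisted neural miR-9 and miR-7a, at 7.22-fold and 9.92-fold, and miR-132, at least 7.23-fold, were higher with the Stat3 probe. So were most assays: 73% of the 100 miRNA assays measured in both pull-downs were at least 2-fold higher. Relative to the median of their set of rows, miR-9 was at 1.44, miR-7a at 1.98 and miR-132 at least at 1.44. mmu-miR-124, which represses non-neuronal transcripts in neurons, crossed the threshold at a Ct of 32.76 in the control pull-down and at 35.35 in the Stat3 pull-down. The well was thus past the limit with the Stat3 probe but still gave a Ct, and the ratio was at most 0.344, or 0.27 from the determined Ct. mmu-miR-219-5p was at a Ct of 33.42 in the control pull-down and undetermined in the Stat3 pull-down, for a ratio of at most 0.544. At a 2-fold limit miR-124 was the only listed assay that was lower, bounds included, as were 2.19% of the miRNA assays tied to a well. Both listed neural assays lie in row C, and relative to the median of their set of rows the bounds were 0.0686 and 0.109. With no offset they were 0.212 and 0.335, and then miR-124, miR-219-5p and the rat-named miR-200b were at least 2-fold lower, as were 5.84% of the miRNA assays tied to a well.

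The miRNAs of liver and islet lay close to the limit. mmu-miR-122 was at a Ct of 34.62 in the control pull-down, and mmu-miR-375, which restrains insulin secretion, was at 34.72. Both were undetermined in the Stat3 pull-down. A well that starts so near 35 cycles can show only a small difference: with no offset the log2 bounds were -0.38 and -0.28, smaller in size than the calibrator SD of 0.97. The authors' deposited table lists these assays at 1.251 and 1.334, above 1, although their Ct was below 35 with the control probe only. Whether their level differed between the pull-downs was not detectable here.

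Of the erythroid pair, miR-451 was below the limit in both pull-downs and miR-144 with the control probe only. mmu-miR-451, which is matured by Ago2 and not by Dicer, was at a Ct of 30.47 in the control pull-down and 31.17 in the Stat3 pull-down, the lowest Ct of the 10 in either pull-down. Its ratio was 1.002, and 0.617 with no offset. mmu-miR-144, whose gene neighbours it, was at a Ct of 34.37 in the control pull-down and at 39.00 in the Stat3 pull-down, where the well carried an instrument warning. Its bound was 1.05, and from the determined Ct the ratio was 0.0656. The name of miR-451 matched a pair of wells whose Ct differences were -0.6969 and -0.6973 cycles, and the other well, with Ct values of 20.47 and 21.17, was taken as the UniSp6 spike-in because it held the lowest Ct of the plates. The ratio of miR-451 is the same for either well, but its level rests on this choice.

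mmu-miR-126-3p, which promotes vascular integrity and VEGF signalling in endothelium, was the 1 listed assay with a lower Ct in the Stat3 pull-down, 31.58 against 33.27 in the control pull-down. Its ratio of 5.25-fold made it the 1 listed assay at least 2-fold higher, as were 73% of the 100 miRNA assays measured in both pull-downs. It ranked at 40 of those 100. The ratio was 1.24 relative to the median of all miRNA assays and 1.05 relative to that of its own set of rows, both closer to 1 than the calibrator SD of 1.96-fold. Scaled to 4 reference miRNAs (miR-16, miR-103, miR-191, miR-423-3p), its log2 ratio was -0.18, and without miR-423-3p among them it was 0.84. The value of -0.18 is smaller in size than the calibrator SD, and the sign changed on no other scale that was run.

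The listed epithelial assays were near the limit in both pull-downs or past it with the Stat3 probe. The mouse-named assay, mmu-miR-200c, was at a Ct of 33.71 in the control pull-down and 34.70 in the Stat3 pull-down, a ratio of 0.815. The rat-named assay, rno-miR-200c, was at 34.33 and 34.45, a ratio of 1.499 in the authors' deposited table. The assays differed by 0.63 cycles with the control probe and by -0.25 with the Stat3 probe (rat minus mouse), and their log2 ratios by 0.88, all smaller in size than 0.97 cycles. How the mouse-named and rat-named assays differ in design is not given in the sources used here, and they are in different sets of plate rows. The assay rno-miR-200b, whose mouse counterpart shares the miR-200c seed, was at a Ct of 33.94 in the control pull-down and undetermined in the Stat3 pull-down, for a ratio of at most 0.779. The mouse-named assays of miR-200b, miR-141, miR-203 and miR-429 stayed at or above the limit on both plates. For miR-200b the mouse-named and rat-named assays thus differed with the control probe.

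Across the 4 assays measured in both pull-downs the median ratio was 1.23-fold, beside 4.22-fold over all 100 miRNA assays, and 3 of the 4 had a higher Ct with the Stat3 probe, as did 18% of the 100. The mouse-named and rat-named miR-200c both count among the 4, and the rat-named one lies in the rows whose median was 1.80-fold. Of the 10, 9 had a ratio or bound under the median of all, the highest of them 1.499 for rno-miR-200c in the authors' deposited table. For the 6 seen with the control probe only this follows from their state. Their bound cannot reach 1.625, the ratio of an assay with the same Ct in both pull-downs. Only for the 4 measured in both pull-downs could it have come out otherwise. The listed assays were picked on these Ct values, and nothing is read from the count. In the order of Ct with the control probe miR-451 came first, followed by miR-124, miR-126-3p, miR-219-5p, the mouse-named miR-200c, the rat-named miR-200b and miR-200c, miR-144, miR-122 and miR-375. Of the 9 steps between neighbours in that order, 6 were smaller than 0.29 cycles, the calibrator SD on that plate, and the largest was the step of 2.29 cycles after miR-451. With the Stat3 probe, where 6 of the 10 gave a Ct, the order was miR-451, miR-126-3p, rat-named miR-200c, mouse-named miR-200c, miR-124 and miR-144. The step from miR-126-3p to miR-200c, 2.87 cycles, and that from miR-124 to miR-144, 3.65 cycles, exceeded the calibrator SD of 1.16 on that plate. Efficiency may vary from assay to assay, so this is an order of Ct and not of abundance.

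**Figure D2:**
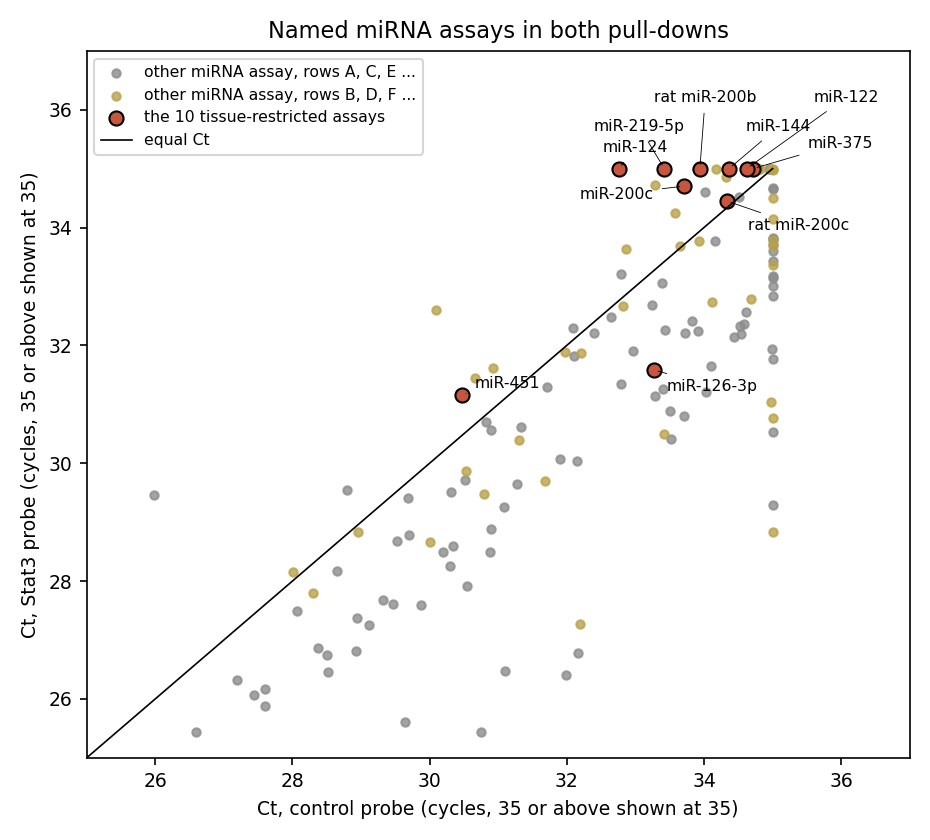
Ct with the Stat3 probe against Ct with the control probe (cycles) for the miRNA assays tied to a well, with Ct values of 35 or above drawn at 35, the 10 tissue-restricted assays in red and other assays coloured by set of plate rows. Most points lie under the line of equal Ct, while of the red points miR-126-3p alone does.

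Other assays of a similar level were mostly seen in both pull-downs. Between control Ct values of 32.76 and 34.72, the range of the listed assays without miR-451, there were 37 other miRNA assays. Of these, 3 (8.11%) were not below 35 cycles with the Stat3 probe, against 6 of 9 listed assays. The other 34 had a median ratio of 4.36-fold, from 0.601 to 14.1-fold, and 24 of them were at least 2-fold higher. The listed assays were picked with these values known, so the contrast is a description. The 8 unlisted assays seen with the control probe only were miR-490-3p (33.89), miR-187 (33.96), the rat-named miR-450a (34.18), miR-196b (34.79), miR-676 (34.82), miR-200a (34.94), miR-205 (34.97) and miR-297a (34.98), with the control Ct given for each. The epithelial miRNAs miR-200a and miR-205 lay just inside the limit but are not among the 10. Of all 14 such assays, 10 were undetermined with the Stat3 probe, 4 of them listed ones.

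By distance over both Ct values, the unlisted assay nearest to miR-451 was miR-101b, at 0.34 cycles, then miR-18a at 0.59. Nearest to miR-126-3p were miR-9, at 0.35 cycles, and miR-652, at 0.44. Nearest to the mouse-named miR-200c were miR-29b, at 0.33 cycles, and miR-582-5p, at 0.43, and to the rat-named miR-200c miR-338-3p, at 0.19, and miR-29b, at 0.35. With 2 pull-downs this likeness rests on 2 values for each assay.

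**Figure D3:**
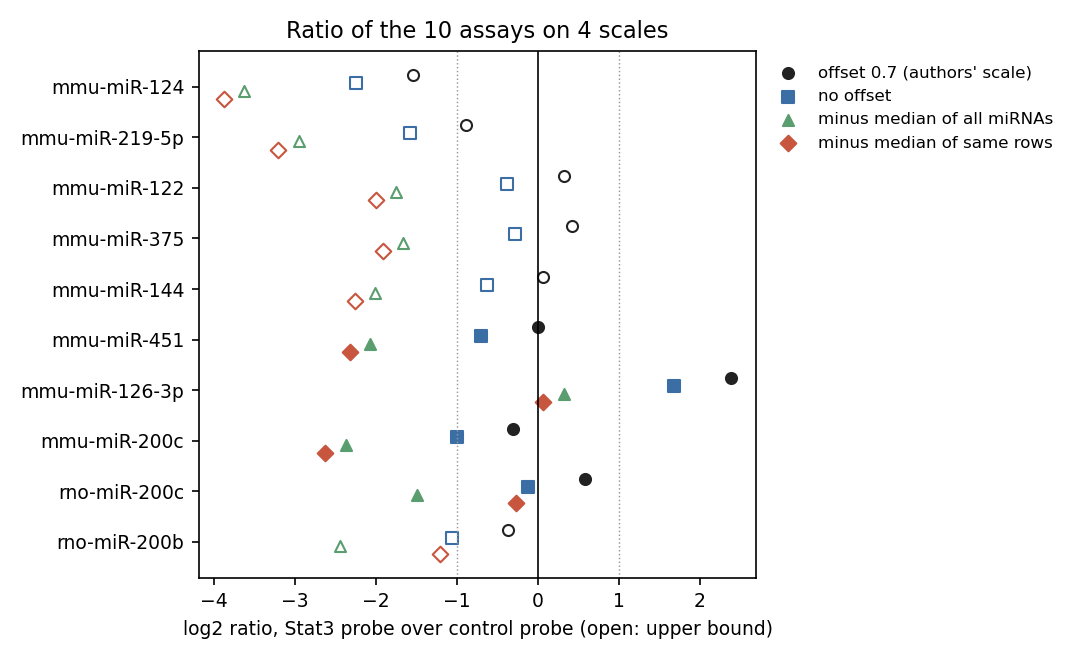
Log2 ratio of Stat3 probe over control probe (horizontal axis) for the 10 assays on 4 scales: with the authors' offset, with none, and relative to the median of all miRNA assays or of the same set of plate rows. Open symbols are upper bounds and dotted lines mark 2-fold. Only miR-126-3p is above 0 on all 4 scales shown, and on the scale of 4 reference miRNAs, not drawn, it is at -0.18, or at 0.84 without miR-423-3p.

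With the offset, 6 of the 10 had a ratio or bound above 1, as did 90.5% of the miRNA assays tied to a well. Of these 6, miR-122, miR-375 and miR-144 have upper bounds, which give no direction, and miR-451 lay at 1.002. Without the offset, 1 of the 10, miR-126-3p at 3.23-fold, was above 1, as were 76.6% of the miRNA assays tied to a well. The listed assays were chosen on the Ct values behind these ratios, and nothing is read from the shares. No ratio of the 4 assays measured in both pull-downs moved by more than the calibrator SD when the offset was left out, since 0.7 cycles is smaller than 0.97. Relative to the median of all 100 miRNA assays, miR-451 was at 0.238, the mouse-named miR-200c at 0.193 and the rat-named miR-200c at 0.355, which in calibrator SDs, counted in cycles, is -2.13, -2.44 and -1.53 from it. Each distance sets 1 well per plate against an SD of 3 wells and is not a test. Relative to the median of its own rows the rat-named miR-200c was at 0.831, while miR-451 and the mouse-named miR-200c were at 0.20 and 0.163.

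Macrophage miRNAs were measured in both pull-downs throughout the marker list. miR-21 was at a Ct of 27.19 in the control pull-down and 26.33 in the Stat3 pull-down, 2.96-fold. miR-142-3p, a miRNA of blood cells, had Ct values of 28.07 and 27.48, a ratio of 2.44-fold, and miR-155, induced by inflammatory stimuli, 28.96 and 28.84, a ratio of 1.76-fold. miR-146a, which dampens Toll-like receptor signalling, was at 2.81-fold and miR-223, a myeloid miRNA, at 1.42-fold. miR-223 had the highest control Ct of these 5, 32.09, and lay within 1 cycle of miR-124, at 32.76. Its Ct was higher with the Stat3 probe, 32.29, and its ratio with no offset was 0.874. The rat-named assay of miR-223, not in the marker list, had Ct values of 32.82 and 32.68. All 5 marker ratios lay under the median of all miRNA assays. Relative to the median of its own set of rows miR-155 was at 0.976, and the other macrophage miRNAs were between 0.283 and 0.59.

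The other miRNAs of such tissues did not all run the same way. Lists of tissue-restricted miRNAs held 60 assays, of which 42 (70%) stayed at or above the limit on both plates, beside 63% of all miRNA assays. Of the 50 that are not among the 10, 4 were measured in both pull-downs, 2 with the control probe only and 2 with the Stat3 probe only. In the neural list, miR-9 was at 7.22-fold, with Ct values of 33.40 and 31.25, and miR-7a at 9.92-fold, with 33.50 and 30.89. miR-132, a neural miRNA also induced in myeloid cells, had Ct values of 39.73 and 32.85 and was at least 7.23-fold higher with the Stat3 probe. These 3 lay on the side opposite to miR-124 and miR-219-5p, as did most miRNA assays measured in both pull-downs, 73% of which were at least 2-fold higher. Relative to the median of their set of rows they were at 1.44, 1.98 and, for miR-132, at least 1.44, where 1 calibrator SD is 1.96-fold. The control Ct values of miR-9 and miR-7a were close to that of miR-219-5p. The erythroid miR-486 was at 1.22-fold, with Ct values of 32.79 and 33.20, near miR-451. All 8 muscle assays and 16 of the 17 assays of pluripotent and early embryonic cells likewise stayed at or above it. The exception, miR-294, was at least 3.65-fold higher with the Stat3 probe in the deposited table, with no well assigned. miR-449c, of ciliated cells, was at 0.288-fold, with Ct values of 30.10 and 32.59. The 238 wells not below the limit on either plate carry no assay name, and 52.9% of them still gave a Ct on at least 1 plate, so a low level of the undetected miRNAs is not excluded.

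**Figure D4:**
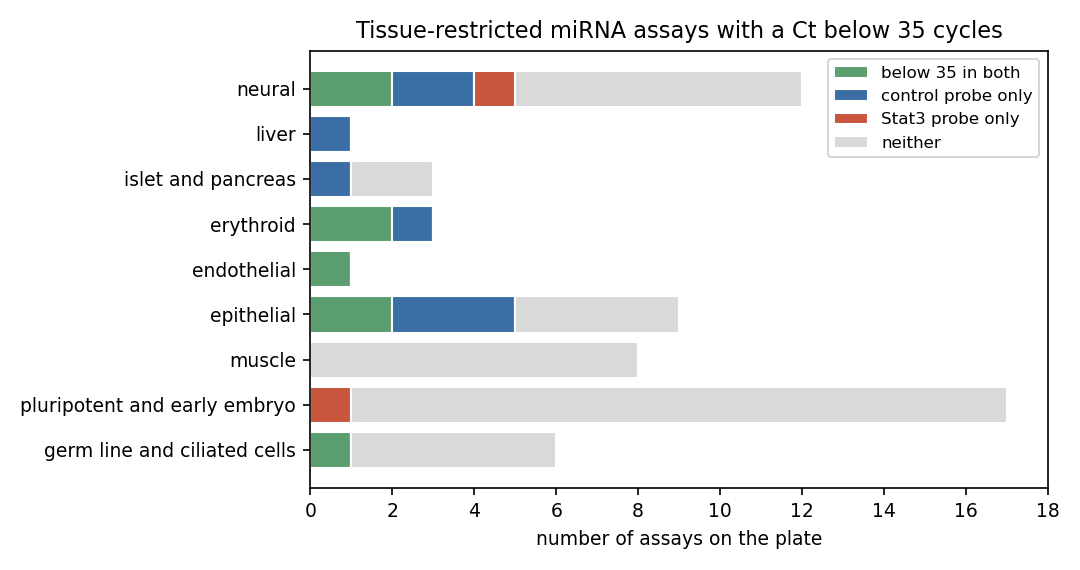
Number of assays on the plate (horizontal axis) in each list of tissue-restricted miRNAs, split by the pull-downs in which the Ct was below 35 cycles. Muscle, and pluripotent and early embryonic cells, have 8 of 8 and 16 of 17 assays in the class seen in neither, while all 3 erythroid assays were below the limit with the control probe.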

How the data were processed

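Per the file headers, each plate was exported from SDS 2.3 with a manual threshold of 0.15, and the deposited plate values are raw Ct in cycles, without assay names. The authors' deposited table holds a ratio for each named assay. Its header calls this a log fold change, but the values are linear ratios, with an offset of 0.7 cycles and a ceiling of 35 cycles that no header or label states and that were worked out from the values. Names were tied to wells where the recomputed ratio was within 0.0006 of the table's value. Of 146 rows that differ from 1.625, 142 matched 1 well and 4 matched 2. Of the 10 assays, 9 matched 1 well. The matching code was run on simulated plates built with the same offset and ceiling, which cannot test whether these hold for the real plates. The members and lists were chosen with earlier results of these data known. Named assays are the 10, list members below 35 cycles, macrophage miRNAs, the 2 nearest assays to each member measured in both pull-downs, and those seen with the control probe only. The calibrator, spike-in and small nuclear RNA controls are named as well. Alternatives were other Ct limits, other scales, a 4-fold limit, determined Ct values, mouse names only and the other well of miR-451. Python 3.11.15 and numpy 2.4.6 were used. Sequences and gene spans are RefSeq's, on GRCm38.p6.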

Additional observations from a re-analysis of the deposited data

How the results depend on the processing

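With 1 pull-down per group, no replicate could be left out, and a value is said to have moved when it changed by more than the calibrator SD of 0.97 cycles, or a count by more than 1.5 times. No paired analysis was possible because each group holds 1 pull-down and no result comes from a test. With a limit of 33 cycles the numbers of the 10 assays seen in both pull-downs, with the control probe only and with the Stat3 probe only were 1, 1 and 1, and with a limit of 34 cycles 2 were seen in both; limits of 36 cycles or any determined Ct kept all 3 counts within 1.5 times. The median log2 ratio of the 4 assays measured in both was 0.29 with the offset. It was -0.41 with no offset, -1.78 relative to the median of all miRNA assays and -1.29 relative to the same plate rows. On the scale of 4 references it was -2.28, and -1.26 without miR-423-3p among them. The median was thus positive with the offset only. miR-126-3p changed sign on the scale of 4 references, from 2.39 to -0.18, but not without miR-423-3p among them, at 0.84. The rat-named miR-200c went from 0.58 to -0.12 with no offset and to -0.27 relative to the same plate rows. Both changes were smaller than the calibrator SD. The rat-named miR-200c was negative on the remaining scales as well. The number of assays at least 2-fold lower was 1, with 0 at a 4-fold limit and 3 without the offset. The control Ct of miR-451 was 30.47, or 20.47 if the other well of its pair is used. Near 35 cycles, a loss of signal cannot show a large ratio, which limits miR-122 and miR-375 most.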
